A study of Mus musculus with 12 samples.

Results

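The response of wild-type soleus to exercise was followed in 6 RNA sequencing libraries, 3 from exercised and 3 from sedentary wild-type (WT) mice, of the 12 libraries in the study. The soleus is a postural calf muscle rich in slow, oxidative fibres. All mice were C57BL/6 on chow, and the WT mice carried floxed Dnmt3a alleles, so the controls were not free of engineered alleles. The other 6 libraries came from mice named MCK-Dnmt3a KO, sedentary or exercised. MCK usually stands for muscle creatine kinase, whose promoter drives deletion in striated muscle fibres and leaves the gene in the other cells of the muscle, and Dnmt3a encodes a de novo DNA methyltransferase. The sources used here do not give the kind and length of exercise, the delay to dissection, the time of day, or the age and sex of the mice. The 6 WT libraries were taken by their genotype and condition, and all 13886 of 24539 listed genes that passed a filter on low counts were compared. Libraries within a group are called a, b and c, and WT exercise a carries 2 animal numbers in its name. Whether it pooled animals was not given.

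Contracting muscle is known to switch on immediate early genes through calcium, cyclic AMP and stress kinase signals. Their products are largely transcription factors, such as the AP-1 proteins and the Nr4a receptors, that act before slower changes in metabolic genes. Heat shock factor 1, activated by heat and unfolded protein, drives a separate set of chaperone genes. The coactivator PGC-1alpha, encoded by Ppargc1a, is the best known link between exercise and mitochondrial and metabolic gene expression.

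Total counts of the WT libraries ran from 13329547 to 15171963. Levels are given as CPM, in which each library's counts are divided by its TMM-scaled size, and a change is the log2 fold change of exercise against sedentary with its standard error (SE). Where genes were compared with each other, CPM was divided by the annotated exon length in kilobases. On that scale the slow myosin Myh7 stood at 1052 ± 207 (SD, n = 3) in sedentary and 1145 ± 181 in exercised WT muscle, and Myh2, the fast oxidative myosin, at 1437 ± 85.4 and 1601 ± 315. Myh4, the fastest myosin, stood at 47.3 and 61.5 CPM per kilobase, far below both. Dnmt3a, the gene targeted in the knockout, stood at 136, 180 and 133 CPM in the sedentary and 118, 113 and 176 CPM in the exercised WT libraries. Its log2 change in WT was -0.14 ± 0.157 (adjusted p = 0.822), and its mean in KO muscle was 50.2 CPM sedentary and 58.7 CPM exercised.

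Several WT libraries stood apart. The plasma protein gene Alb, a defining transcript of liver, reached 227 and 178 CPM in WT exercise b and c, with 2.28 CPM as the highest value among the remaining 4 WT libraries. The summed level of the liver marker list (24 tested genes) was 462 and 477 CPM in WT exercise b and c, against 34.3 to 72.9 CPM in the other 4. WT exercise a differed from the others in clock genes: the clock output factor Dbp was at 237 CPM there and at 22.8 and 18.9 CPM in b and c, while the sedentary libraries stood at 24.2, 136 and 136 CPM. In WT exercise a, 468 genes lay more than 1 log2 unit from both other libraries of the group, against 127 to 255 in b and c and 102 to 237 in the sedentary libraries. The 3 called genes, and other genes and lists named below whose call, sign or size changed most, are also given without b and c or without WT exercise a and WT sedentary b.

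At an adjusted p under 0.05, 3 of the 13886 tested genes (0.0216%) differed between exercised and sedentary WT soleus, by edgeR's quasi-likelihood test fitted to all 12 libraries. Slc25a25 and Fosl2 rose (0.0144% of genes) and Akap5 fell (0.0072%). The count of calls was 0 to 8 with 1 library left out and 122 with DESeq2. The unadjusted p was under 0.05 for 1306 genes (9.41%), 553 higher genes (3.98%) and 753 lower genes (5.42%). The fourth gene by p had an adjusted p of 0.113, and 61 genes had one under 0.2. The 3 and 3 libraries did not overlap for 2129 genes (15.3%), 924 that were higher (6.65%) and 1205 that were lower (8.68%) with exercise. The median change over all tested genes was 0.00.

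**Figure D1:**
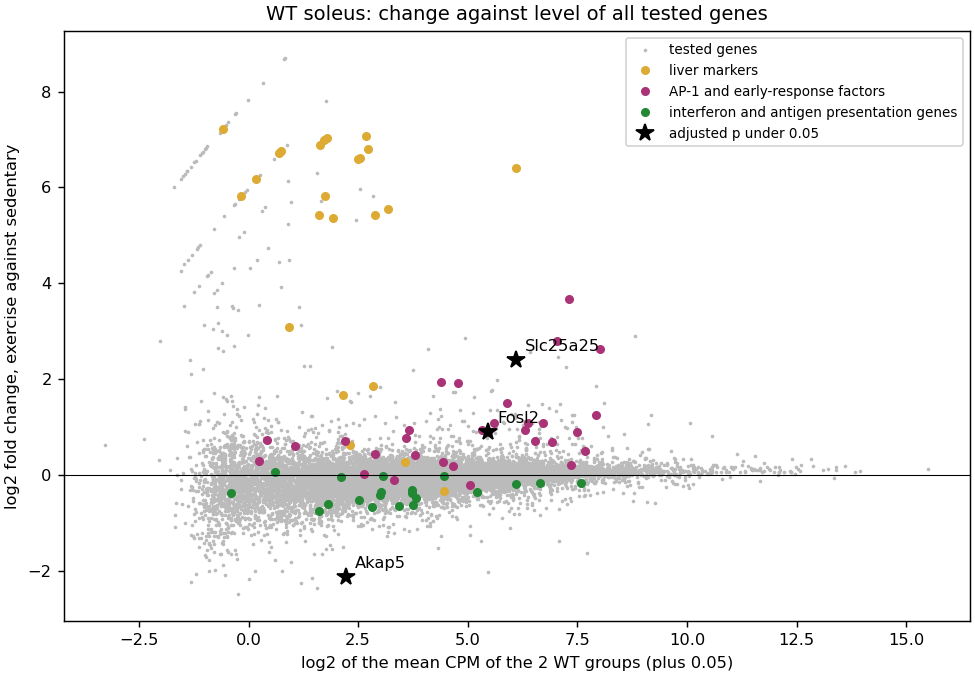
Change with exercise in WT soleus (vertical, log2) against mean level (horizontal, log2 CPM) for the 13886 tested genes, 1 point per gene. The 3 genes that passed the test are starred, the early-response list lies mostly above 0, the interferon list mostly below 0, and most liver markers lie far above all of these because of WT exercise b and c.

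Slc25a25 encodes a calcium-sensitive carrier of ATP-Mg and phosphate in the inner mitochondrial membrane. It stood at 22.1, 31.1 and 11.8 CPM in the sedentary libraries and at 132, 102 and 110 CPM in the exercised ones. The lowest exercised library was more than 3 times the highest sedentary one. The log2 change was 2.40 ± 0.297, a 5.28-fold rise (adjusted p = 0.0416). The gene lies on chromosome 2 at chr2:32414487-32451445, minus strand, in mm10, and its exons overlap Naif1 on the other strand. The sources used here do not say whether counting used strand, so reads of the overlap may be shared.

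Fosl2 encodes Fra-2, a member of the AP-1 family. It stood at 29.8, 36.2 and 26.7 CPM sedentary and at 50.6, 58.3 and 62.1 CPM with exercise. The spread within each group was narrow and the groups did not meet. The log2 change was 0.88 ± 0.121, a 1.85-fold rise (adjusted p = 0.0416), at chr5:32135801-32157842, plus strand.

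Akap5 encodes a scaffold that anchors protein kinase A and calcineurin near membrane channels and receptors. It stood at 6.15, 7.71 and 8.77 CPM sedentary and at 1.13, 2.09 and 1.87 CPM with exercise. Behind these levels were 99, 117 and 131 counts sedentary and 14, 32 and 27 with exercise, so the low group rests on few reads. The log2 change was -2.13 ± 0.279, a level 4.38-fold lower (adjusted p = 0.0416), at chr12:76324891-76334153, plus strand.

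The direction of these 3 changes was the same under each of 23 alternative fits, but the calls were not. Akap5 passed in 10 of the 23, Fosl2 in 9 and Slc25a25 in 9, with adjusted p up to 0.243, 0.251 and 0.198. Without WT exercise b and c the log2 changes were -2.73 for Akap5, 0.72 for Fosl2 and 2.61 for Slc25a25, with adjusted p of 0.0494, 0.137 and 0.076. That fit keeps WT exercise a as the lone exercised WT library and assumes that it varies like the other groups. Without WT exercise a and WT sedentary b they were -1.90, 1.10 and 2.65, with adjusted p of 0.138, 0.0113 and 0.0157.

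Of the 20 genes with the smallest p, which include these 3, 8 had a higher and 12 a lower estimate. The groups did not overlap for any of the 20, against 15.3% of all tested genes. A choice by small p in the same libraries favours such genes. The 17 besides the called genes did not pass the test, with adjusted p of 0.113 for Gja4 and Klf11 and 0.162 for the others. Calls of the 20 depended on the fit: DESeq2 called 20, a liver covariate 8, limma-voom 2 and the WT libraries alone 1. Among the higher ones were signalling and transcription genes. Sik1, a cyclic AMP-induced kinase that restrains CREB coactivators, stood at 56.6, 63.6 and 36.5 CPM sedentary and at 202, 225 and 321 CPM with exercise (2.26 ± 0.363). Btg2, an antiproliferative early-response gene, stood at 41.4, 116 and 61.7 against 481, 269 and 594 CPM (2.62 ± 0.457). Nr4a2, an orphan nuclear receptor, stood at 5.65, 5.86 and 2.68 against 17.9, 29.2 and 41.0 CPM (2.63 ± 0.462). For each of these the lowest exercised library lay more than 2 times above the highest sedentary one.

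Ier5, an early-response gene, stood at 26.1, 38.7 and 28.5 CPM sedentary and 118, 61.0 and 84.0 CPM exercised. Klf11, a Kruppel-like transcription factor, stood at 13.9, 12.4 and 13.7 against 29.7, 27.7 and 20.9 CPM. Without WT exercise b and c, which leaves WT exercise a as the lone exercised WT library, the change was 1.93 for Ier5 and 1.16 for Klf11. Without WT exercise a and WT sedentary b the changes were 1.42 and 0.82, and neither passed the test (adjusted p of 0.164 and 0.391).

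Among the lower genes were membrane and signalling proteins. Gja4, the arterial gap junction protein connexin 37, stood at 10.4, 11.4 and 15.2 CPM sedentary and at 6.44, 5.82 and 4.98 CPM with exercise (-1.10 ± 0.177). Sema6d, a membrane semaphorin, had a log2 change of -0.88 ± 0.173. Apbb2, an adaptor that binds the amyloid precursor protein, stood at 54.4, 53.1 and 54.0 against 37.2, 42.6 and 41.6 CPM, the smallest change of the 20 (-0.41 ± 0.079). Trim13, an ubiquitin ligase of the endoplasmic reticulum, stood at 14.5, 16.7 and 18.8 against 8.21, 11 and 9.76 CPM. Bahcc1, Sez6l2, Yeats2, Fam212b and Fam102a lay between -1.14 and -0.67. Gbp4 (-0.71 ± 0.141), an interferon-induced GTPase, belongs to a family of close copies with overlapping exons, and its value is uncertain.

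**Figure D2:**
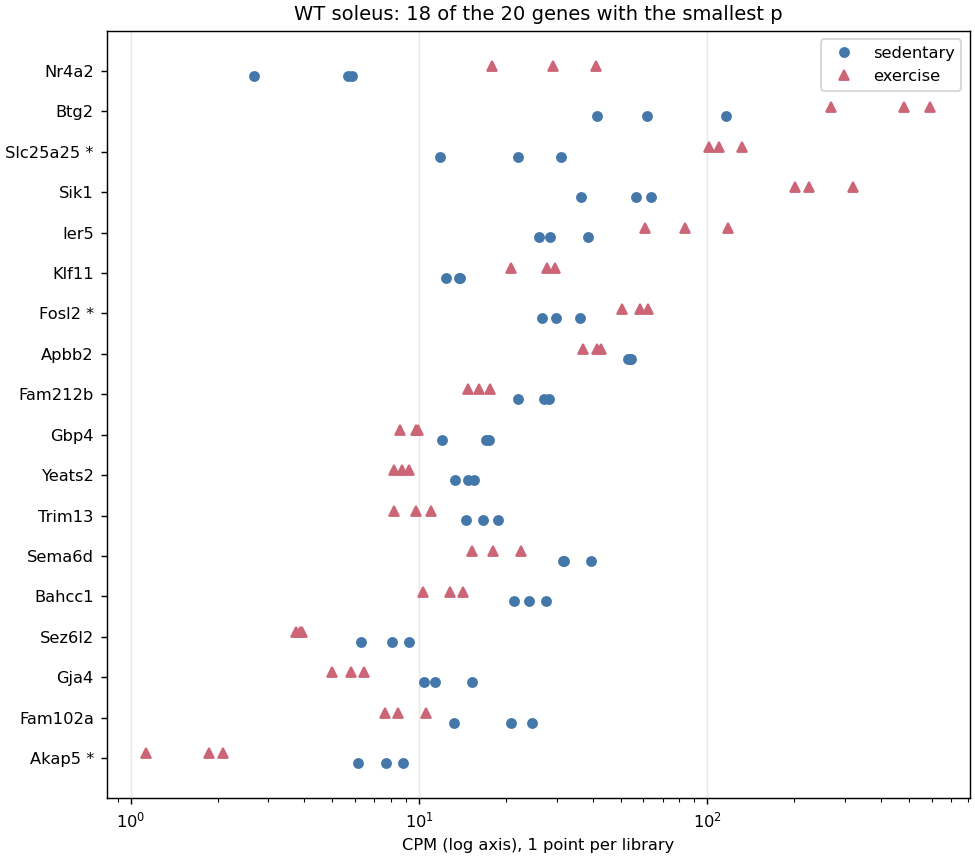
Level (CPM, log axis) of 18 of the 20 genes with the smallest p in each of the 3 sedentary (circles) and 3 exercised (triangles) WT libraries. The 3 genes marked with a star passed the test. In each row the circles and triangles do not overlap, which the choice by small p favours.

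The promoters of the genes named by p were searched for the cyclic AMP response element TGACGTCA, the site that CREB is known to bind, and for its core TGACG, on both strands. The full element contains the core on each strand, so it counts as an overlapping pair of cores. The windows run from 250 bases before to 50 after the transcription start and were taken from RefSeq, build GRCm38.p6. Of the windows of lower genes, 2 are listed under the symbol Gbp4 on another chromosome than the annotation used here gives, and whether they belong to the counted gene is uncertain. The full element was in 2 of the 8 windows of the higher genes (6 of 8 genes had a window), in 0 of the 15 windows of the lower genes, and in 588 of all 32851 windows (1.79%). The core was in 3 of the 8 and 4 of the 15 windows, and in 20.8% of all windows. The 3 higher genes with a match are shown because their windows carry it, with TGACG or its reverse complement CGTCA in capitals. Slc25a25 has 3 annotated starts, and only the window of the most downstream one holds the element. The counts do not tell which start was used. The windows are chr2:32424017-32424316 for Slc25a25, chr1:134079106-134079405 for Btg2 and chr2:57123954-57124253 for Nr4a2, all on the minus strand, written 5′ to 3′ in the direction of transcription.
Slc25a25: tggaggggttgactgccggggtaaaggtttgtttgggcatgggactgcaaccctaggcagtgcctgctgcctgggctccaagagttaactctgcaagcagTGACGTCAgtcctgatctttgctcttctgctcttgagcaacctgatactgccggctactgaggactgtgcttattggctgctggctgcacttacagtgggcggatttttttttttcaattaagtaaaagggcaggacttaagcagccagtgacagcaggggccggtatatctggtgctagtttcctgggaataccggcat
Btg2: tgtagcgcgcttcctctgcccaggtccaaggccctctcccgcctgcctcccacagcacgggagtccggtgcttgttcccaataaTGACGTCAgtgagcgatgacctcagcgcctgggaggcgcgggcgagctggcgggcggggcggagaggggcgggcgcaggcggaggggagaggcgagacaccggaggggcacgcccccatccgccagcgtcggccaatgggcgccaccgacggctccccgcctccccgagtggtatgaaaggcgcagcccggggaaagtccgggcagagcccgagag
Nr4a2: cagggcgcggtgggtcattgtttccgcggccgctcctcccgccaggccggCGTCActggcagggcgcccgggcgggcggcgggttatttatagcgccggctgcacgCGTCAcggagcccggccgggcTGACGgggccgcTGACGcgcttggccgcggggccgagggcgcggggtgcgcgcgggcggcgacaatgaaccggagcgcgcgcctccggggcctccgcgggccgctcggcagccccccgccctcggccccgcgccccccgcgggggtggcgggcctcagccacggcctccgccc
The element began 150 bases before the start in Slc25a25 and 166 before it in Btg2, and Nr4a2 held 4 separate cores and no full element. A match of letters is a description and does not show that a factor binds there.

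The list of AP-1 and early-response factors held 31 tested genes. Of these, 29 had a higher and 2 a lower estimate with exercise, 1 passed the test (Fosl2), and 15 were higher in all 3 exercised libraries than in any sedentary one, against 6.65% of all tested genes. None was lower in all 3. The median change was 0.77, against 0.00 over all genes. Atf3, a stress-induced repressor of the ATF/CREB family, stood at 15.9, 41.0 and 12.4 CPM sedentary and at 223, 226 and 427 CPM with exercise, the largest change of the list (3.66 ± 0.75, adjusted p = 0.172). Fos stood at 16.3, 73.1 and 10.6 against 174, 232 and 283 CPM (adjusted p = 0.344). Jun, its usual partner in AP-1, stood at 115, 179 and 141 against 404, 361 and 265 CPM (adjusted p = 0.162). WT sedentary b was the highest sedentary library for all 3, and still below every exercised library.

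Values differed between members of one family. Egr1 was higher in all 3 exercised libraries (28.0, 49.3 and 85.3 against 90.7, 124 and 97.1 CPM), while Egr3 overlapped (6.15, 8.89 and 3.35 against 4.51, 9.16 and 4.84 CPM). Fosb was high in WT sedentary b (21.8 CPM, against 2.05 and 1.81 CPM in a and c) and at 14.4, 12.7 and 22.2 CPM with exercise. Maff, a small Maf protein, stood at 8.88, 10.3 and 6.83 against 33.1, 17.3 and 48.8 CPM. The list's median was 0.76 without WT exercise b and c and 1.02 without WT exercise a and WT sedentary b.

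The list of Nr4a receptors and CREB targets held 16 tested genes, 13 with a higher and 3 with a lower estimate, and a median change of 0.67. Of these, 8 were higher and 1 lower in all 3 exercised libraries, against 6.65% and 8.68% of all tested genes. The member that passed the test was Akap5, which fell and which is known as an anchoring protein, not as a transcription factor. Nr4a3 stood at 6.46, 9.55 and 6.56 CPM sedentary and at 27.0, 31.7 and 104 CPM with exercise (2.85 ± 0.737, adjusted p = 0.284). Nr4a1 stood at 75.6, 201 and 41.9 against 394, 330 and 425 CPM. Irs2, an adaptor of the insulin receptor and a CREB target in liver, stood at 57.3, 52.2 and 12.5 against 226, 215 and 232 CPM (2.46 ± 0.661, adjusted p = 0.294). The 3 exercised libraries were close together for Irs2, and the spread lay among the sedentary ones. Mafk stood at 49.5, 54.6 and 53.6 against 90.1, 83.2 and 99.2 CPM (0.79 ± 0.16, adjusted p = 0.162).

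The list of exercise-inducible metabolic regulators held 25 tested genes, 14 higher and 11 lower, with a median of 0.01. Slc25a25 was its one called member. In all 3 exercised libraries 5 members were higher and 1 lower, against 6.65% and 8.68% of all tested genes. Ppargc1a stood at 60.2, 62.9 and 84.7 CPM sedentary and at 136, 99.6 and 121 CPM with exercise (0.78 ± 0.408, adjusted p = 0.612). Ppara, a nuclear receptor of fatty acid oxidation, stood at 98.9, 85.2 and 102 against 248, 103 and 145 CPM. WT exercise a carried most of that difference. The change was 1.38 with WT exercise a as the lone exercised WT library and 0.31 without WT exercise a and WT sedentary b. Hk2, the muscle hexokinase, stood at 426, 484 and 507 against 717, 518 and 583 CPM. Pdk4, a kinase that inhibits the pyruvate dehydrogenase complex, had a log2 change of -0.08 ± 0.781 and varied widely within the exercised group. Angptl4, Ucp3 and Tfam overlapped between the groups too.

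**Figure D3:**
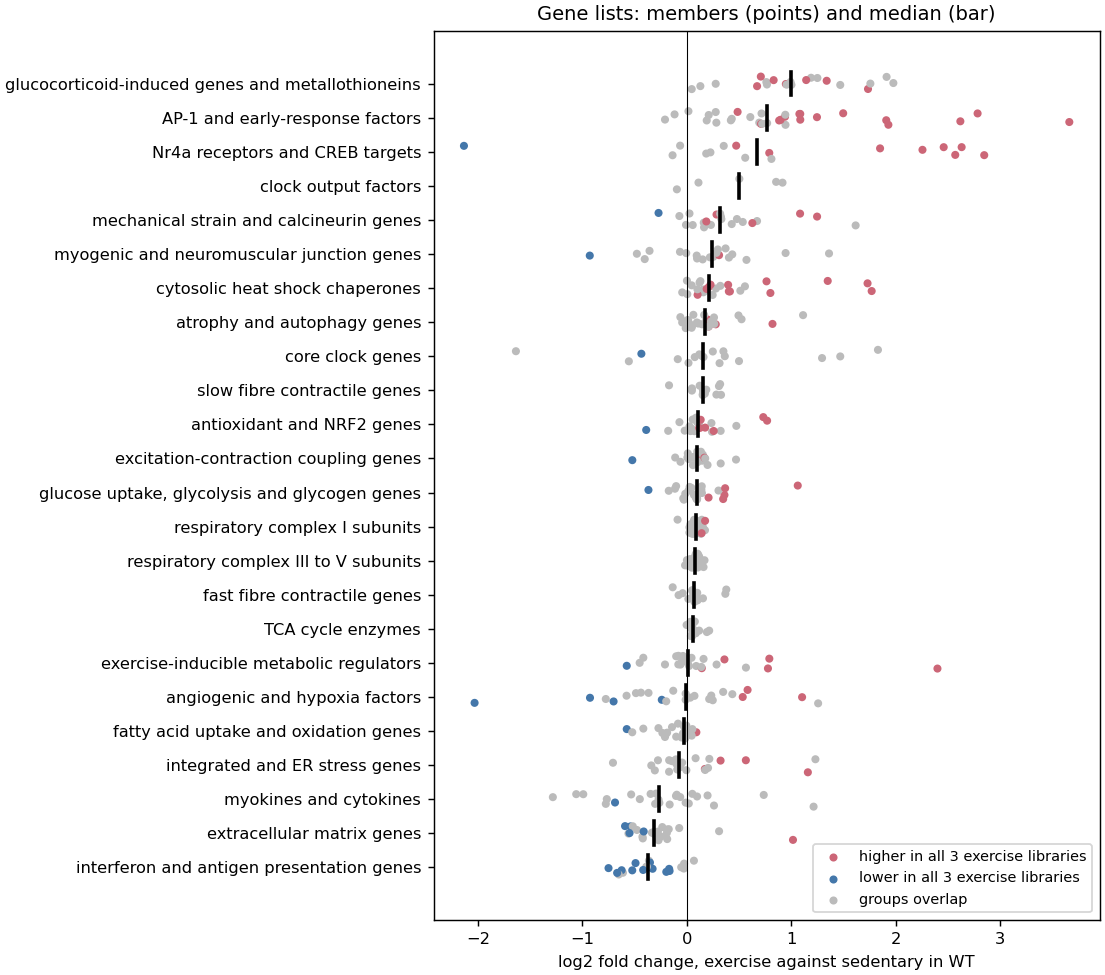
Log2 change with exercise in WT of each tested member (points) of 24 gene lists, with the list median as a bar. Red points were higher and blue points lower in all 3 exercised libraries than in any sedentary one, and grey points overlapped. The early-response list had 15 red points of 31 and the interferon list 11 blue points of 20. Over all tested genes the shares were 6.65% and 8.68%.

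The list of heat shock chaperones, mostly cytosolic but with the mitochondrial Hspd1 and Hspe1, held 28 tested members. Of these, 27 had a higher estimate, none passed the test, and 12 were higher in all 3 exercised libraries, against 6.65% of all tested genes. The median was 0.22, single members reached 1.77, and the median lay between 0.14 and 0.27 in 10 alternatives. Hspa8, the constitutive Hsc70, stood at 210, 208 and 217 CPM sedentary and at 297, 275 and 274 CPM with exercise (0.41 ± 0.0826, adjusted p = 0.162). Hspb1, the small chaperone Hsp25, stood at 67.1, 72.6 and 70.1 against 130, 121 and 105 CPM (0.76 ± 0.154, adjusted p = 0.162). In both the gap between the groups was wide against the spread within them.

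Hspa1a, the inducible Hsp70, stood at 19.8, 24.1 and 19.8 CPM sedentary and at 82.2, 70.7 and 64.2 CPM with exercise (1.77 ± 0.557, adjusted p = 0.369). Hspa1b stood at 10.6, 15.0 and 10.7 against 38.1, 45.1 and 37.2 CPM. The coding sequences of these neighbours are nearly identical, so the split between them is uncertain. With the WT libraries fitted alone both passed the test, among 6 called genes. Dnajb1, an Hsp40 co-chaperone, stood at 20.2, 15.7 and 12.1 against 39.6, 55.0 and 28.0 CPM. The mitochondrial chaperones Hspd1 and Hspe1 had log2 changes of 0.01 and -0.04, with overlapping groups, as did Hsf1 itself at 0.00.

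The letters GAANNTTC, the core of the element that heat shock factors are known to bind, were in 14 of the 33 windows of this list (13 of the 23 genes with a window) and in 7.86% of all windows. Hspb1 is shown because it has the larger change of the pair named first above and holds 2 cores, in capitals, that begin 117 and 97 bases before the start. Its window is chr5:135887669-135887968, plus strand.
Hspb1: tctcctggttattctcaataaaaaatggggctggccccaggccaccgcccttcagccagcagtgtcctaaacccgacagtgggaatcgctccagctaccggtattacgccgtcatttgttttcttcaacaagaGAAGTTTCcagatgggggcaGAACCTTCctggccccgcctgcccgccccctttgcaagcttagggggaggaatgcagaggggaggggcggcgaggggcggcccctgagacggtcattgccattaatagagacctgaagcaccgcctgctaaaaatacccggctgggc
Some of these windows are not separate: those of Hspd1 and Hspe1 overlap, as do both Hsph1 windows, so a site can count more than once, and Hspa1a and Hspa1b are near-identical copies. Members of the list without a difference between the groups were counted among the 13 as well, so the share describes the list and not its response. The other motif, TGACG, was in 16 of the same 33 windows (48.5%), against 20.8% of all windows. GAANNTTC was in 1 of the 8 windows of the higher genes named by p (Fosl2) and in 0 of the 15 of the lower ones.

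The list of glucocorticoid-induced genes and metallothioneins had a median of 0.99, which was 1.52 without WT exercise b and c and 0.99 without WT exercise a and WT sedentary b. All 21 tested members had a higher estimate, none passed the test, and 7 were higher in all 3 exercised libraries, against 6.65% of all tested genes. The libraries were uneven. The list's median distance from the sedentary mean was 1.60 log2 units in WT exercise a, 0.39 in b and 0.69 in c, and 0.45 in WT sedentary b, above exercise b. Errfi1, a feedback inhibitor of the EGF receptor, stood at 57.6, 116 and 44.6 CPM sedentary and at 203, 160 and 189 CPM with exercise (1.34 ± 0.28, adjusted p = 0.168). It passed the test without WT exercise a and WT sedentary b (1.78, adjusted p = 0.00106). Tsc22d3, which encodes the glucocorticoid-induced leucine zipper, stood at 61.1, 126 and 73.4 against 260, 142 and 173 CPM. Fkbp5 (50.8, 43.3 and 28.7 against 185, 38.7 and 57.4 CPM) and Glul (177, 205 and 164 against 667, 221 and 200 CPM) were high in WT exercise a and near the sedentary range in b and c. Mt2, a metallothionein, stood at 7.95, 19.2 and 7.70 against 39.2, 25.6 and 51.3 CPM.

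The clock genes Per2 and Arntl also stood apart in WT exercise a, while Per1 and Nr1d1 varied widely among the sedentary libraries too. Per1, which both the clock and glucocorticoids are known to induce, stood at 23.1, 156 and 41.2 CPM sedentary and at 294, 127 and 188 CPM with exercise. Per2 stood at 60.0 CPM in WT exercise a and between 6.85 and 12.6 CPM in the other 5. Arntl, which encodes BMAL1 and peaks opposite the Per genes, stood at 7.65 CPM in WT exercise a and between 33.9 and 73.6 CPM elsewhere. Nr1d1, a repressor of Arntl, stood at 49.7, 342 and 560 against 161, 82.8 and 62.8 CPM. The 5 clock output factors had a median of 0.50, which became -0.12 without WT exercise a. The 17 core clock genes included 0 that were higher and 1 that was lower in all 3 exercised libraries (Bhlhe40). Over all tested genes the shares were 6.65% and 8.68%. The glucocorticoid list's median was 0.71 without WT exercise a. The part of the clock phase in that list was not tested.

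**Figure D4:**
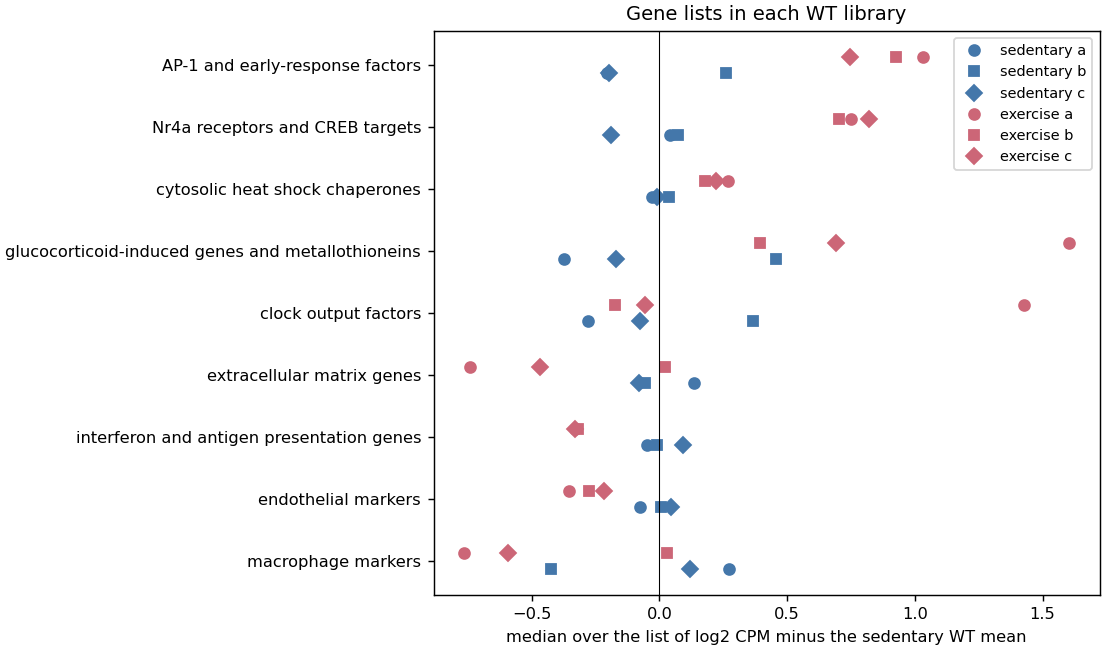
Median over each list's tested members of the log2 CPM minus the sedentary WT mean (horizontal), for each of the 6 WT libraries. The early-response, Nr4a and chaperone lists separate the exercised (red) from the sedentary (blue) libraries, while the glucocorticoid list is led by exercise a at 1.60 and has sedentary b at 0.45.

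Genes of mechanical strain had 18 higher and 3 lower estimates of 21, a median of 0.32, and 5 higher and 1 lower in all 3 exercised libraries, against 6.65% and 8.68% of all tested genes. Abra, an actin-binding activator of serum response factor signalling in striated muscle, also called STARS, stood at 303, 413 and 307 CPM sedentary and at 840, 648 and 940 CPM with exercise (1.25 ± 0.257, adjusted p = 0.162). Xirp1, an actin-binding protein of intercalated discs and damaged fibres, had a change of 1.08 ± 0.35 (adjusted p = 0.369), also with no overlap. Ankrd1, a titin-associated strain sensor, stood at 120 CPM in WT exercise b and between 15.0 and 23.0 CPM in the other 5, so its estimate of 1.62 rests on that library.

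The atrophy and autophagy list had 23 higher estimates of 26 and a median of 0.18. Of the 26, 4 were higher in all 3 exercised libraries, against 6.65% of all tested genes. Its median was 0.33 without WT exercise b and c and 0.09 without WT exercise a and WT sedentary b. Trim63, the ubiquitin ligase MuRF1, stood at 152, 118 and 113 CPM sedentary and at 291, 164 and 220 CPM with exercise (adjusted p = 0.575), while Fbxo32, atrogin-1, overlapped. Foxo1 was at 201 CPM in WT exercise a and at 49.7 and 66.0 CPM in b and c, against 43.9 to 55.9 CPM sedentary. Its change was 2.05 with WT exercise a as the lone exercised WT library and 0.22 without WT exercise a and WT sedentary b. Of 24 genes of the integrated and endoplasmic reticulum stress responses, 9 were higher and 15 lower, with a median of -0.07. That median was -0.31 without WT exercise b and c, and it was positive, up to 0.08, without WT exercise a, without WT sedentary c, and without WT exercise a and WT sedentary b. Atf4, their central transcription factor, stood at 207, 218 and 222 against 272, 254 and 284 CPM (0.32 ± 0.0835, adjusted p = 0.256). The antioxidant list had 20 higher estimates of 24 tested and a median of 0.11, and 7 were higher and 1 lower in all 3, against 6.65% and 8.68% of all genes. Its summed level was 2448, 2440 and 2460 CPM sedentary and 2671, 2703 and 2618 CPM with exercise, with no overlap. In it was Osgin1, a target of the factor NRF2, which stood at 10.5, 6.26 and 11 against 14.6, 18.8 and 13.9 CPM.

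Myokines and cytokines had 7 higher and 18 lower estimates of 25 tested and a median of -0.26. The median was -0.60 without WT exercise b and c and -0.13 without WT exercise a and WT sedentary b, and with 1 WT library left out it ran from -0.25 to -0.08. Socs3, a feedback inhibitor of cytokine signalling, stood at 8.01, 6.65 and 8.64 CPM sedentary and 4.02, 5.56 and 4.84 CPM with exercise (-0.69 ± 0.243, adjusted p = 0.388). It was the one member lower in all 3 exercised libraries, against 8.68% of all tested genes. Il6, often called the first exercise myokine, did not pass the filter, with 5 counts over the sedentary and 4 over the exercised WT libraries. Il6ra stood at 30.2 CPM in WT exercise a and at 4.69 to 7.70 CPM in the other 5. Its change was 2.30 with WT exercise a as the lone exercised WT library and 0.07 without WT exercise a and WT sedentary b.

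The machinery of contraction and energy use was near level by list median. Slow fibre genes had a median of 0.16 and fast fibre genes one of 0.07. In both lists 0 members were outside the other group's range in all 3 libraries, against 15.3% of all tested genes. The fast fibre median turned negative with library totals alone, without WT exercise a, and without WT exercise a with WT sedentary b. TCA cycle enzymes had a median of 0.06, which became -0.02 with library totals alone, and fatty acid genes had one of -0.03, which turned positive without WT exercise c and without WT sedentary c (up to 0.05). Complex I subunits had 35 higher estimates of 36 and a median of 0.09, and complexes III to V had 30 of 31 and 0.08. Yet only 2 and 0 of them were higher in all 3 exercised libraries, against 6.65% of all tested genes. Scaling by library totals moved the median of all genes to -0.08, about the size of these list medians. Glycolysis and glycogen genes had 19 higher estimates of 26 and a median of 0.09. In all 3 exercised libraries 5 of them were higher and 1 lower, against 6.65% and 8.68% of all tested genes. Among them Ppp1r3c, a glycogen-targeting subunit of protein phosphatase 1, stood at 543, 314 and 216 CPM sedentary and at 719, 719 and 802 CPM with exercise (1.06 ± 0.501, adjusted p = 0.559). Kcnj2, the inward rectifier potassium channel of the excitation-contraction list, stood at 147, 140 and 134 against 98.3, 116 and 79.1 CPM (-0.52 ± 0.136, adjusted p = 0.256).

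Interferon and antigen presentation genes were lower. Of 20 tested members, 19 had a lower estimate, none passed the test, and 11 were lower in all 3 exercised libraries, against 8.68% of all tested genes. The median was -0.37 and lay between -0.45 and -0.31 in 10 alternatives. Gbp7, a guanylate-binding protein, stood at 15.5, 15.7 and 18.1 CPM sedentary and at 11.5, 11.8 and 11.8 CPM with exercise (-0.49 ± 0.116, adjusted p = 0.213). Tap1, the peptide transporter for MHC class I, stood at 9.13, 7.38 and 9.31 against 4.59, 5.82 and 5.81 CPM (-0.67 ± 0.189, adjusted p = 0.294). Its exons overlap those of Psmb9, an immunoproteasome subunit with a change of -0.75.

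Of 12 endothelial markers, 11 had a lower estimate and 7 were lower in all 3 exercised libraries, against 8.68% of all tested genes, with a median of -0.31. Their summed level was 1166, 1162 and 1184 CPM sedentary and 954, 1003 and 982 CPM with exercise. The exact two-sided permutation test of that sum gave p = 0.1, the smallest that 3 against 3 allows. The pericyte and smooth muscle markers, the other vessel list, had 10 lower estimates of 12 and a median of -0.30, but their summed level was 6591, 7616 and 7821 CPM sedentary and 8520, 7552 and 8189 CPM with exercise, most of it from Des, which muscle fibres also express. Fewer endothelial cells and less RNA per cell cannot be told apart in whole muscle. Cdh5, the endothelial cadherin, stood at 311, 305 and 300 against 226, 253 and 240 CPM, and Pecam1 at 204, 230 and 235 against 176, 187 and 175 CPM.

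Aplnr, the apelin receptor of endothelial cells, had the largest change of the angiogenic list. It stood at 65.7, 57.8 and 89.4 CPM sedentary and at 8.93, 29.8 and 13 CPM with exercise (-2.03 ± 0.464, adjusted p = 0.241). The endothelial markers had a median of -0.31 and a lowest estimate of -0.65. Whether Aplnr, picked as the extreme of its list, fell beyond them was not tested. Angpt2, an antagonist of the Tie2 receptor, stood at 4.41, 3.95 and 5.36 against 1.77, 2.23 and 3.18 CPM (-0.93 ± 0.243), and Kdr, the main VEGF receptor, at 144, 120 and 146 against 50.6, 94.2 and 107 CPM. Vegfa itself overlapped, with a change of -0.01 ± 0.293. Ctgf, a matricellular target of the YAP and SRF pathways, was higher in all 3 (117, 153 and 48.2 against 269, 251 and 165 CPM). In all, 11 of the 24 members had a higher and 13 a lower estimate, with a median of -0.01. In all 3 exercised libraries 3 members were higher and 4 lower, against 6.65% and 8.68% of all tested genes.

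Of 23 extracellular matrix genes, 21 had a lower estimate, with a median of -0.31. In all 3 exercised libraries 4 were lower and 1 higher, against 8.68% and 6.65% of all tested genes. Col4a2, a basement membrane collagen, stood at 450, 557 and 536 CPM sedentary and at 301, 392 and 370 CPM with exercise (-0.54 ± 0.174, adjusted p = 0.369), and its exons overlap those of Col4a1 (-0.59). Fibrillar Col1a1 overlapped between the groups (-0.19 ± 0.423). Adamts1, a secreted metalloprotease and early-response gene, was the exception at 70.6, 86.1 and 45.1 against 134, 105 and 170 CPM (1.02 ± 0.252, adjusted p = 0.256). The list's median was -0.74 without WT exercise b and c and -0.25 without WT exercise a and WT sedentary b, so its size depended on which exercised libraries were kept.

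Markers of other cells moved less evenly. The 12 tested macrophage markers all had a lower estimate, but 0 were lower in all 3 exercised libraries, against 8.68% of all tested genes. Their sum was 223, 142 and 194 CPM sedentary and 116, 184 and 119 CPM with exercise (exact permutation p = 0.2). The sum of the fibro-adipogenic progenitor markers was 2309, 1824 and 2186 against 1805, 1981 and 1530 CPM (exact permutation p = 0.2). The sum of the Schwann cell markers was 973 CPM in WT sedentary a and between 210 and 293 CPM in the other 5. Of the 10 neutrophil genes only Csf3r passed the filter, with means of 0.71 CPM sedentary and 0.49 CPM exercised in WT. Ly6g, Mpo and Ngp had 0 counts in all 12 libraries, and the other untested members had 3 to 41 counts over them. The part of these cells in the lower matrix and interferon lists was not tested.

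The 20 genes with the smallest p in WT were set beside the same contrast in KO muscle, whose group means share no library with it. The spread behind the p-values was estimated from all 12 libraries, the KO ones included. A choice by small p thus also favours genes with little spread within the KO groups, and so KO groups that do not overlap. In KO sedentary b the liver markers summed to 731 CPM, the macrophage markers to 689 CPM and the Schwann cell markers to 1074 CPM, all above the other 5 KO libraries. KO exercise a carries 2 animal numbers, as WT exercise a does, and both were high in clock output factors. These summed to 1250 CPM in KO exercise a, against 446 and 586 CPM in b and c. In WT exercise a they summed to 1395 CPM, against 509 and 658 CPM in b and c. The part of this shared difference in the values below was not tested. The sign was the same for 19 of the 20 (18 without KO sedentary b and 19 without KO exercise a, both chosen after seeing the data), and for 16 the KO groups did not overlap in the same direction, against 10.3% of all genes that were higher and 12.5% that were lower in that way in KO. The KO estimate was smaller in size for 17 of the 20, but the genes had been chosen for a small p in WT. In KO muscle 0 genes passed the test by edgeR (2492 at an unadjusted p under 0.05, 359 called by DESeq2). For the interaction, the test of whether the response differed between genotypes, 0 genes passed by edgeR (430 at an unadjusted p under 0.05, 3.1% of genes, and 22 called by DESeq2). The KO change was -1.77 ± 0.271 for Akap5 (adjusted p = 0.119), 0.64 for Fosl2 and 1.76 for Slc25a25. Apbb2 had the opposite sign in KO (0.07), and Trim13 (-0.15) and Fam212b (-0.01) had far smaller KO estimates, though none of these differences passed the test. Of the 1306 genes at an unadjusted p under 0.05 in WT, 84.9% had the same sign in KO, against 70.5% of all tested genes.

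**Figure D5:**
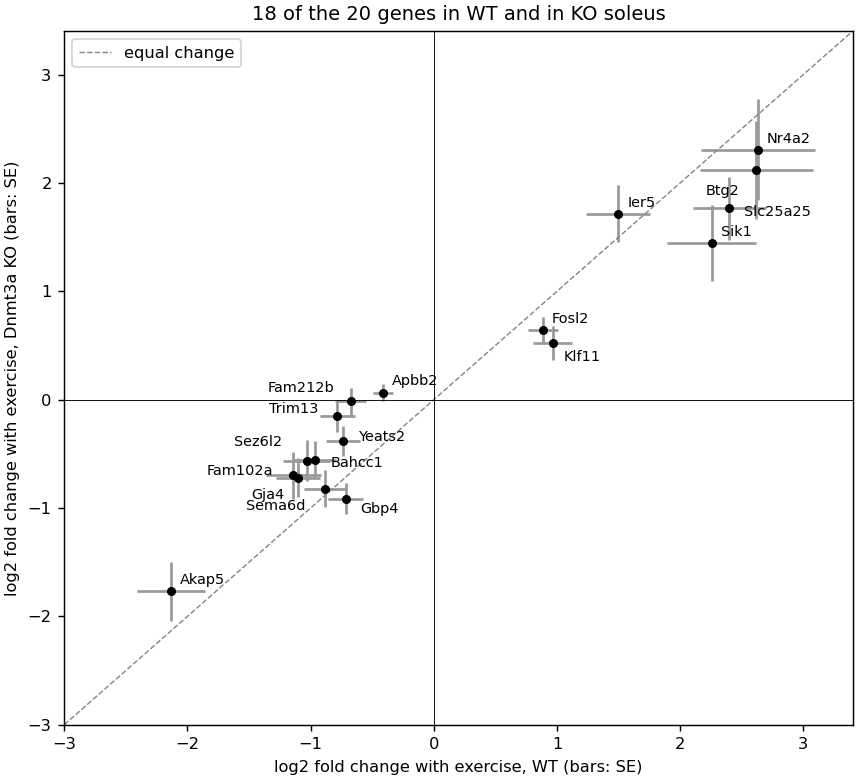
Log2 change with exercise in KO (vertical) against WT (horizontal) soleus for 18 of the 20 genes with the smallest p in WT, with SE bars and the line of equal change dashed. Of the 18 points, 17 have the same sign on both axes, and Apbb2 lies just above 0 in KO.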

How the data were processed

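RNA was extracted with Trizol and a Qiagen RNeasy mini kit and sequenced on a BGISEQ instrument, per the labels' protocols. STAR, featureCounts and mm10 are named in the submitters' processing notes, with no versions. The sources used here give neither the annotation nor the use of strand. The authors deposited whole-number counts per gene for 12 libraries. A further 12 columns with values per sample were left aside. Count columns name a genotype and condition but match no single sample label, so they were assigned to groups only. The design text gives 3 mice per group, and p-values measure the spread between these libraries.

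Genes passed filterByExpr (minimum count 10), were scaled with TMM and were fitted with edgeR 4.0.16 (robust quasi-likelihood, all 12 libraries, 8 residual degrees of freedom, R 4.3.3), with Benjamini-Hochberg adjustment over 13886 genes and a threshold of 0.05. The common biological coefficient of variation was 0.168. The procedure was checked on simulated data with known changes. The simulated libraries did not include any that stood apart as some did here, so the check does not cover these. DESeq2 1.42.0, limma-voom (limma 3.58.1), other scalings, filters, covariates and left-out libraries were alternatives. CPM and list medians were computed here from the counts. Coordinates and exon lengths are from GENCODE M21. Replicate pairs differed by more than sampling noise (chi-square per gene 8.73 to 27.7 in WT).

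The genes named were those called and the next by p up to 20, Dnmt3a, the called members or the 2 smallest p of each of 36 lists, and the 2 most abundant of each marker list. Some genes that this rule selects are not reported here. Other members named here were chosen after their values were seen. The members, lists and tests were chosen with earlier results of these data known.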

Additional observations from a re-analysis of the deposited data

How the results depend on the processing

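The count of 3 called genes in WT (2 rises, 1 fall) depended on the fit. With scaling by library totals alone and with no low-count filter there was 1 rise. With the WT libraries alone 6 genes were called (5 rises), with a clock covariate 0 (0 rises, 0 falls), with a liver covariate 34 (19 rises, 15 falls), and with DESeq2 122 (63 rises, 59 falls). Limma-voom called 0 falls. Of alternatives chosen after seeing the data, leaving out WT exercise b and c gave 23 (17 rises, 6 falls), and leaving out WT exercise a and WT sedentary b gave 7 (7 rises, 0 falls). Leaving out 1 library at a time gave 0 to 8 calls, 0 to 5 rises and 0 to 3 falls, with 0 calls in 9 of 12 such fits and 873 to 1546 genes at an unadjusted p under 0.05. In KO the 0 calls became 0 to 4 with 1 library left out, 10 without WT exercise a and WT sedentary b, and 359 with DESeq2. The interaction had 22 calls with DESeq2 and 0 in the others. The cause of these shifts was not tested.

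Some signs turned, and ranges here are over the fits with 1 library left out. The log2 change of Dnmt3a ran from -0.37 to 0.020 (positive without WT sedentary b) and was 0.11 without WT exercise a and WT sedentary b. That of Myh2 ran from -0.016 (without WT exercise a) to 0.25 and was -0.026 without WT exercise a and WT sedentary b. The summed marker difference in CPM ran from -0.296 to 0.0555 for lymphocytes, -14.8 to 53.9 for erythrocytes and -5.13 to 21.8 for satellite cells, each turned by leaving out WT exercise a. It ran from -346 to 34.7 for Schwann cells (turned by WT sedentary a) and from -165 to 19.5 for tendon (turned by WT exercise c), and was -9.32 for satellite cells with library totals alone. No paired analysis was possible because the count columns carry no replicate number of the labels. With 3 mice per group, low genes such as Akap5 rest on few reads.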
